A study of Mus musculus with 6 samples.

Results

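The VMH identity transcription factors are 10 genes that encode DNA-binding proteins or transcriptional cofactors of the ventromedial hypothalamus (VMH): Nr5a1, Nr0b1, Fezf1, Sox14, Nkx2-1, Lmo3, Rreb1, Vgll2, Nr2f1 and Nr2f2. They were taken by symbol from a table of 47480 genes, and all 10 were found. Levels were compared between VMHpvlm and VMHpvll, parts of the ventrolateral VMH that were cut by laser capture microdissection from frozen coronal brain sections of female mice. All mice carried VgluT2-cre, a recombinase driven from the gene of the vesicular glutamate transporter Slc17a6, and the Ai6 green fluorescent reporter that it switches on, so the regions share this genotype. Each region had 3 libraries of total RNA, and the titles of both regions begin with F19, F20 and KH_161103. The sources used here give neither the age of the mice nor the criteria for the borders of the captured areas. A captured area holds every cell within it, so in these data fewer cells of a type and less RNA per cell cannot be told apart.

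The VMH is a mostly glutamatergic nucleus that takes part in metabolic control and in social and sexual behaviour. Its neurons arise from the Nkx2-1-positive ventral hypothalamus, and many of them express Nr5a1, the nuclear receptor SF-1, which is needed for the nucleus to form. SF-1 binds DNA as a monomer at an extended nuclear receptor half-site and is held back by the related protein DAX-1, the product of Nr0b1.

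Depth ran from 7157831 to 11293159 reads per library, a ratio of 1.58, of which Gm42418 alone held 11.6% to 17.9%. The first principal component of all tested genes separated the regions and held 42.2% of the variance, and the second, with 21.01%, set the KH_161103 libraries apart from the other libraries. The labelled tissue carried its markers: Slc17a6 lay between 4533 and 4810 in VMHpvlm and between 4928 and 4962 in VMHpvll, a difference that was not called. The ventrolateral VMH markers Esr1, Pgr, Tac1 and Adcyap1 were present in both regions. A further such marker, Cckar, was low in VMHpvlm (23.1, against 411 in VMHpvll, a 17.8-fold difference). Of these 6 genes, the receptors Esr1 (513 in VMHpvlm and 1490 in VMHpvll), Pgr (1229 and 3410) and Cckar were called toward VMHpvll. Adcyap1 was called toward VMHpvlm. Levels throughout are normalised read counts, given as mean ± SD (n = 3 libraries per region), unless a length scale is named.

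All members that could be tested were higher in VMHpvlm in the 3 pairs of libraries with a shared name, and none was called higher in VMHpvll by limma, edgeR or DESeq2. Of the 10 members, 9 passed the filter of a mean of at least 10, and 8 of these were called higher in VMHpvlm, which means an adjusted p below 0.05 in limma after Benjamini-Hochberg correction. Over all 14522 tested genes, 10.5% were called toward VMHpvlm and 9.48% toward VMHpvll. The same sign toward VMHpvlm in 3 of 3 pairs was seen for 9 of 9 tested members and for 24.9% of all tested genes. The 3 VMHpvlm libraries lay above the 3 VMHpvll libraries for 7 of the 9, against 14.5% of all tested genes (13.5% in the other direction). Rreb1 is among the 7 only by a very narrow margin (556.6 against 556.2). The median log2 difference of the 9 was 0.89, against 0.00 over all tested genes. The sizes fell apart into 2 sets. Nr0b1, Nr5a1, Lmo3 and Sox14 differed at least 2-fold, both in their means and in the log2 difference fitted by limma. The other 4 called members differed by at most 1.85-fold. Of all tested genes, 1.1% were called with a fitted difference of at least 2-fold toward VMHpvlm. When the variance prior of limma was fitted without its trend and robust options, 4 members were called (Nr5a1, Lmo3, Sox14 and Fezf1).

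**Figure D1:**
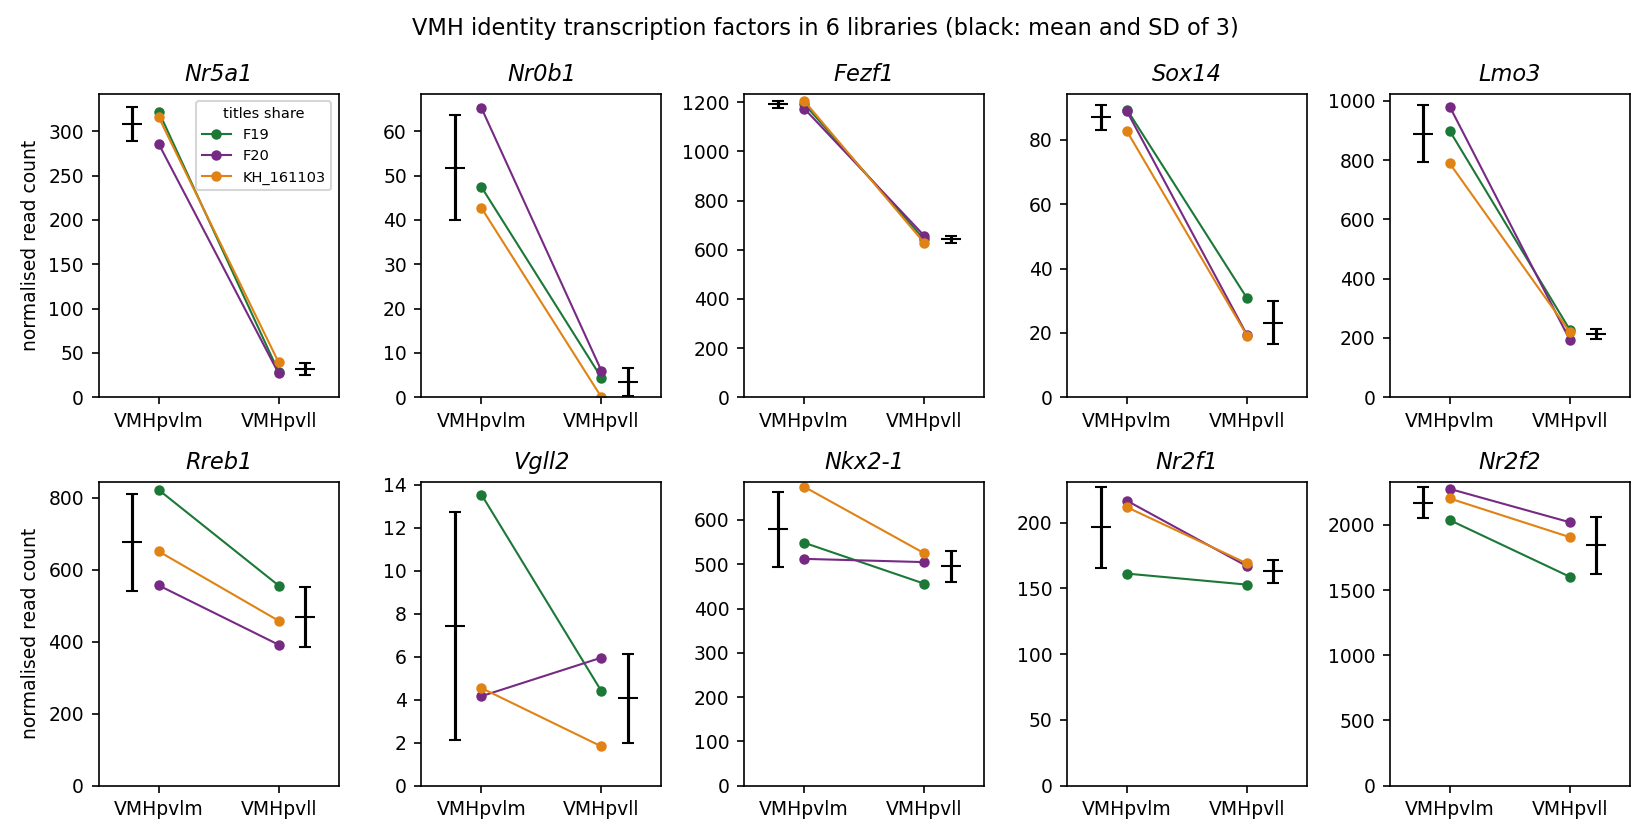
Normalised read count (linear axes from 0) of each of the 10 members in VMHpvlm and VMHpvll, with a coloured line for each shared library name and black bars for the mean and SD of 3 libraries. The lines fall from VMHpvlm to VMHpvll for every gene except Vgll2, where the F20 line rises from 4.16 to 5.96, and the drop is steepest for Nr5a1 and Nr0b1.

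Nr5a1 was abundant in VMHpvlm and low in VMHpvll. It measured 322 (F19), 286 (F20) and 316 (KH_161103) in VMHpvlm, and 28.6, 26.8 and 39.3 in the VMHpvll libraries of the same names. The lowest VMHpvlm library was therefore far above the highest VMHpvll library. The means were 308 ± 19.5 and 31.5 ± 6.73, a 9.77-fold difference (log2 difference 3.27 ± 0.16 SE by limma, adjusted p = 4.04e-21 by Benjamini-Hochberg). In whole reads this was 792 against 87 over the 3 libraries of each region. Nr5a1 was not absent from VMHpvll, since each of its libraries there held between 18 and 43 reads. Nr5a1 lies on chromosome 2 from 38692656 to 38714542 (mm10, minus strand), and its 8 annotated exons overlap those of no other gene.

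Nr0b1, whose product DAX-1 resembles a nuclear receptor without the usual DNA-binding domain and represses SF-1, was low in VMHpvlm and close to the limit of detection in VMHpvll. Its levels in VMHpvlm were 47.4 (F19), 65.2 (F20) and 42.7 (KH_161103), and in VMHpvll 4.40, 5.96 and 0. The VMHpvlm libraries held 35, 47 and 47 reads and the VMHpvll libraries 4, 4 and 0, a total of 129 against 8. The gene lies on chromosome X from 86191764 to 86195947 (plus strand) in 2 exons. A count of 0 in the KH_161103 library allows up to 3 reads, or a normalised count of 2.74. From the pooled reads the ratio was 16.9, with an exact 95% interval of 8.31 to 39.9 that covers counting error only. The fitted log2 difference was 3.96 ± 0.44 SE (limma, Benjamini-Hochberg adjusted p = 1.33e-09), but it moved with the pseudocount, to 4.36 with 0.5 and to 2.80 with 5. The fitted difference was the largest toward VMHpvlm of all tested genes, but this place rests on the VMHpvll library without a read. Without that library, in a model without the block, the log2 difference was 3.08 for Nr0b1 and 3.43 for Nr5a1, and without the KH_161103 pair it was 3.21 and 3.41. With a pseudocount of 5, the difference of Nr5a1 (3.11) was also the larger. Without trend and robust options in the variance prior, the limma Benjamini-Hochberg adjusted p of Nr0b1 was 0.0603.

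Nr0b1 thus followed Nr5a1 across the regions. The level of Nr0b1 divided by that of Nr5a1 measured 0.147 (F19), 0.228 (F20) and 0.135 (KH_161103) in VMHpvlm and 0.154, 0.222 and 0 in VMHpvll. The ranges overlapped, and the means of 0.170 ± 0.0506 and 0.125 ± 0.114 did not pass an exact two-sided permutation test over libraries (p = 0.8, adjusted p = 0.9 over the 6 ratios computed). The permutation tests of all 6 ratios shuffled libraries without regard to their shared names, unlike the main limma fit. With 3 libraries per region, an exact two-sided permutation test of this kind cannot go below p = 0.1. A paired test of the ratios was not run. Within pairs the ratio was nearly equal in F19 and F20 and differed in KH_161103, where VMHpvll held no read of Nr0b1. With 8 reads of Nr0b1 in VMHpvll a moderate change of the ratio was not detectable.

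The upstream sequences of Nr0b1, Sox14 and Lmo3 are shown because these are the members with an entry that differed at least 2-fold, and because nuclear receptors, among them SF-1 and the Nr2f proteins, bind sites built on AGGTCA. The table of RefSeq promoters used here (GRCm38.p6, the same assembly as mm10) was matched for 9 of the 10 members, in 13 entries, and Nr5a1 was not among them. The 250 bases before each annotated start of these 9 were searched. Capitals in the sequences mark AGGTCA on either strand and the TATA box TATAAA on the gene strand. The sequence of Nr0b1 is chrX:86191525-86191774 (plus strand), that of Sox14 is chr9:99876171-99876420 (minus strand) and that of Lmo3 is chr6:138581969-138582218 (minus strand).
Nr0b1: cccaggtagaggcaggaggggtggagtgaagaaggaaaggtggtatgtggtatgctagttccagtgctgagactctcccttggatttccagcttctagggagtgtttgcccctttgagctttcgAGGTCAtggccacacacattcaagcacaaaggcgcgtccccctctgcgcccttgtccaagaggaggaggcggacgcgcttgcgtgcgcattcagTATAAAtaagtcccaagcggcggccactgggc
Sox14: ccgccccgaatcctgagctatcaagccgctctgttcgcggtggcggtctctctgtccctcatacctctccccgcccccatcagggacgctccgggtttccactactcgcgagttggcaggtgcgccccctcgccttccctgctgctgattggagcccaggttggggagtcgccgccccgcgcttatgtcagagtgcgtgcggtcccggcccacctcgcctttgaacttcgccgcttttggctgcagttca
Lmo3: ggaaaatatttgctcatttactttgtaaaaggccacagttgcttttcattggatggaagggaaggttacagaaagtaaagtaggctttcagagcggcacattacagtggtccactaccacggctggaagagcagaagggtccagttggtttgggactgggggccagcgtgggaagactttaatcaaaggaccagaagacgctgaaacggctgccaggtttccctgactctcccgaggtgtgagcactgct

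Of the 9 members searched, Nr0b1 was the only one whose sequence held AGGTCA, which began 126 bases before the start on the gene strand, and the only one with TATAAA, which began 32 bases before the start. Over 32851 promoter entries of all genes, 14.0% held AGGTCA on either strand and 7.59% held TATAAA on the gene strand in the same window. The longer half-site CAAGGTCA, which contains AGGTCA, was in 1.33% of all entries and in none of the 13 entries of these members. CAAGTG, the core letters of sites bound by the Nkx2-1 protein, was in 11.6% of all entries and in 2 of the entries of Rreb1, a gene with several annotated starts. A match is a string of letters, not a measured binding site.

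Fezf1, a zinc-finger repressor used as a marker of VMH neurons, had the highest level per length of the 10 members in both regions, and its libraries differed little within a region. It lies on chromosome 6 from 23245044 to 23248362 (minus strand) in 4 exons. Its levels were 1193 (F19), 1174 (F20) and 1205 (KH_161103) in VMHpvlm and 642, 657 and 628 in VMHpvll. The groups were well separated, and the spread within each was 1.31% and 2.23% of its mean. Of tested genes with a mean level within 2-fold of that of Fezf1, 3.48% had a smaller relative spread in VMHpvlm and 9.99% in VMHpvll. Fezf1 was 1.85-fold higher in VMHpvlm (log2 difference 0.89 ± 0.06 SE by limma, adjusted p = 2.00e-16 by Benjamini-Hochberg).

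The difference of Nr5a1 was much larger than that of Fezf1, although both mark the VMH. For each count of Fezf1 VMHpvlm held 0.270 (F19), 0.243 (F20) and 0.262 (KH_161103) counts of Nr5a1, and VMHpvll held 0.0445, 0.0408 and 0.0625. The mean ratio was 0.259 ± 0.0137 in VMHpvlm and 0.0493 ± 0.0116 in VMHpvll, without overlap. The exact two-sided permutation p of 0.1 (adjusted p = 0.2 over 6 ratios) is the smallest that 3 against 3 libraries can give without pairing. A ratio within a library does not depend on how libraries are scaled.

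Lmo3 and Sox14 formed a middle tier. Lmo3 spans 138362918 to 138581968 on chromosome 6 (minus strand), and Sox14 is a gene of 1 exon at 99874106 to 99876170 on chromosome 9 (minus strand). Lmo3, a LIM-only protein that bridges DNA-binding factors and does not bind DNA itself, measured 898 (F19), 980 (F20) and 788 (KH_161103) in VMHpvlm and 228, 194 and 220 in VMHpvll. The regions did not overlap, and the 4.16-fold difference was called (log2 difference 2.05 ± 0.08 SE by limma, adjusted p = 6.90e-23 by Benjamini-Hochberg). Sox14, a repressor of the SoxB2 group, measured 89.4, 88.8 and 82.7 in VMHpvlm and 30.8, 19.4 and 19.2 in VMHpvll. Here the F19 library was the highest of VMHpvll, and the log2 difference within the F19 pair, 1.51, was smaller than in F20 (2.14) and KH_161103 (2.05). The 3.76-fold difference was called (log2 difference 1.90 ± 0.23 SE by limma, adjusted p = 6.51e-09 by Benjamini-Hochberg). Both genes differed more between the regions than Fezf1. Lmo3 divided by Fezf1 was 0.747 ± 0.0903 in VMHpvlm and 0.333 ± 0.0333 in VMHpvll, and Sox14 divided by Fezf1 was 0.0730 ± 0.00389 and 0.0360 ± 0.0104. Neither ratio overlapped between the regions, and each had the smallest possible exact permutation p of 0.1 (adjusted p = 0.2).

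**Figure D2:**
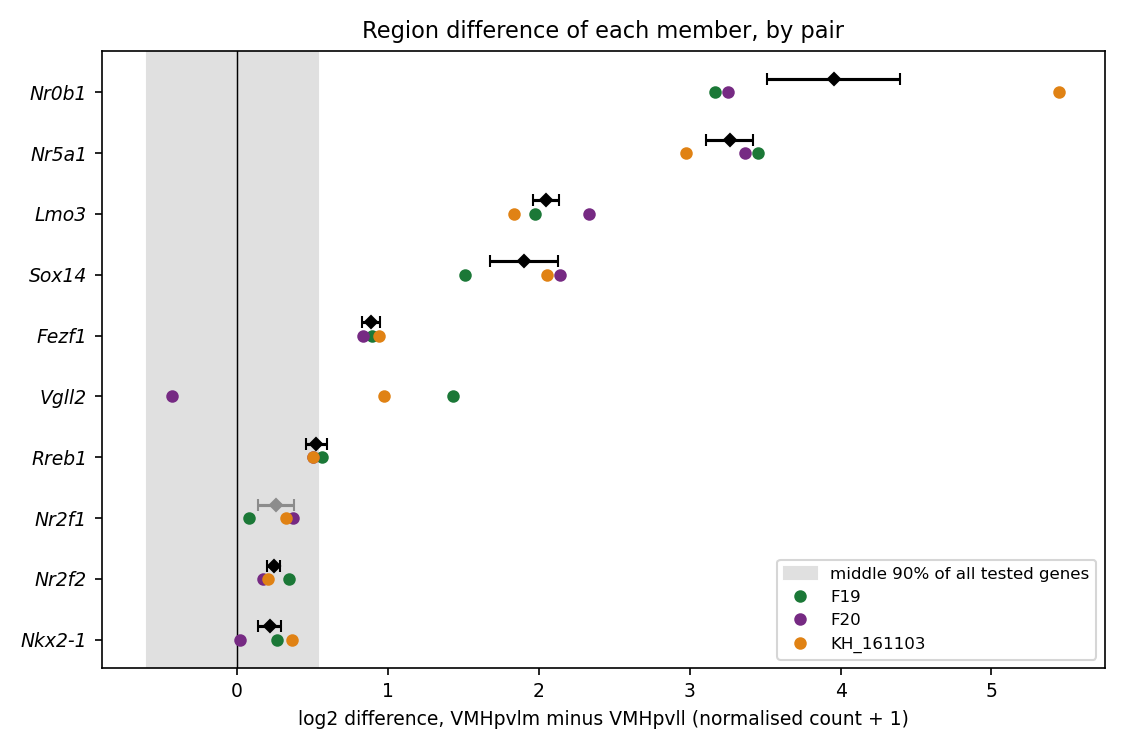
Log2 difference (VMHpvlm minus VMHpvll, normalised count + 1) of each member in the F19, F20 and KH_161103 pairs as coloured points, with the fitted difference and its standard error as a diamond above them, black where called and grey where not. The grey band, from -0.60 to 0.54, holds the middle 90% of the fitted differences of all tested genes, not of their single-pair differences. All pair values and fitted differences of Nr0b1, Nr5a1, Lmo3, Sox14 and Fezf1 lie to its right.

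Rreb1, a zinc-finger protein that binds Ras-responsive elements, differed by a modest amount that was nearly the same in each pair. It lies on chromosome 13 from 37778400 to 37952005 (plus strand). Its levels were 822 (F19), 557 (F20) and 651 (KH_161103) in VMHpvlm and 556, 391.7 and 458 in VMHpvll. The F19 library was the highest and the F20 library the lowest in both regions, so the lowest VMHpvlm library (557) was level with the highest VMHpvll library (556). The log2 differences within the pairs were 0.56, 0.51 and 0.51. Rreb1 was 1.44-fold higher in VMHpvlm (log2 difference 0.52 ± 0.07 SE by limma, adjusted p = 7.29e-08 by Benjamini-Hochberg). This call rests on the pairing, since without the replicate block the limma Benjamini-Hochberg adjusted p was 0.130, and the call was also lost without trend and robust options in the variance prior (adjusted p = 0.0505). In models without the block that left out 1 library, it was lost without the F19 (adjusted p = 0.105) or KH_161103 (0.275) library of VMHpvlm and without the F20 (0.220) or KH_161103 (0.306) library of VMHpvll.

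Nkx2-1, the homeodomain factor that sets up the ventral hypothalamus, and Nr2f2 (COUP-TFII) differed little between the regions. Nkx2-1 lies on chromosome 12 from 56531958 to 56536908, Nr2f2 on chromosome 7 from 70351944 to 70366735 and Nr2f1 on chromosome 13 from 78188973 to 78199757, all on the minus strand. Nkx2-1 measured 549 (F19), 512 (F20) and 675 (KH_161103) in VMHpvlm and 456, 505 and 525 in VMHpvll. The regions overlapped, and the F20 pair hardly differed (log2 difference 0.02). Its 1.17-fold difference was called with all pairs (log2 difference 0.22 ± 0.07 SE by limma, adjusted p = 0.0318 by Benjamini-Hochberg). The call was lost without the F19 pair (0.19, limma Benjamini-Hochberg adjusted p = 0.140), without the KH_161103 pair (0.14, adjusted p = 0.422), without the replicate block (adjusted p = 0.178), by DESeq2 (adjusted p = 0.372) and without trend and robust options in the variance prior (adjusted p = 0.291). Scaling to pan-neuronal genes reduced its difference to 0.10 (adjusted p = 0.345), and models without the block that left out 1 of the 6 libraries gave adjusted p-values from 0.0745 to 0.649.

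Nr2f2, an orphan nuclear receptor, measured 2036 (F19), 2275 (F20) and 2202 (KH_161103) in VMHpvlm and 1602, 2019 and 1905 in VMHpvll. The lowest VMHpvlm library was just above the highest VMHpvll library. F19 was the lowest library in both regions. The 1.18-fold difference was called (log2 difference 0.24 ± 0.05 SE by limma, adjusted p = 5.83e-05 by Benjamini-Hochberg), and the call was lost without trend and robust options in the variance prior (adjusted p = 0.173). Without the replicate block the call was narrowly kept (limma Benjamini-Hochberg adjusted p = 0.0466). In models without the block that left out 1 library, the call was lost without the F20 (adjusted p = 0.176) or KH_161103 (0.125) library of VMHpvlm. The same models lost it without the F19 (0.222) or KH_161103 (0.0630) library of VMHpvll. Exons of the opposite-strand transcript B130024G19Rik cover 7.46% of the exon bases of Nr2f2, and reads of the pair cannot be told apart there.

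Nr2f1 (COUP-TFI), the close relative of Nr2f2, was not called. It measured 161 (F19), 217 (F20) and 212 (KH_161103) in VMHpvlm and 153, 167 and 169 in VMHpvll, with overlap through the F19 library of VMHpvlm. The log2 difference of 0.26 had a 95% interval of 0.02 to 0.49 (limma, Benjamini-Hochberg adjusted p = 0.123), so a difference of the size seen for Nr2f2 is within it. Scaled to Slc17a6, Nr2f1 was called (log2 difference 0.34 by limma, adjusted p = 0.0363 by Benjamini-Hochberg). The ratio of Nr2f1 to Nr2f2 was 0.0902 ± 0.00952 in VMHpvlm and 0.0889 ± 0.00641 in VMHpvll (exact two-sided permutation p = 0.9), and the ratio of Nkx2-1 to Nr2f2 was 0.267 ± 0.0407 and 0.270 ± 0.0180 (exact permutation p = 0.9). The ranges of both ratios overlapped between the regions.

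Vgll2, a vestigial-like cofactor of TEAD proteins encoded on chromosome 10 from 52022502 to 52028471 (plus strand), was near the limit of detection and was not tested. It measured 13.5 (F19), 4.16 (F20) and 4.54 (KH_161103) in VMHpvlm and 4.40, 5.96 and 1.83 in VMHpvll. A single VMHpvlm library stood above the others, and the F20 pair went the other way. The reads were 18 against 10 in all, a ratio of 1.88 with an exact 95% interval of 0.824 to 4.56 for counting error only. When genes without any filter were fitted, Vgll2 had a log2 difference of 0.66 ± 0.58 SE (limma, Benjamini-Hochberg adjusted p = 0.635).

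Set against exon length, Nr5a1 moved most in the order of the members, from place 5 in VMHpvlm to place 8 in VMHpvll. Nr2f1 came after Sox14 in VMHpvlm, where their libraries overlapped, and before it in VMHpvll, where they did not. In VMHpvlm the highest were Fezf1 (494 ± 6.48 normalised counts per kilobase of exon), Nr2f2 (252 ± 14.2), Nkx2-1 (204 ± 30.0) and Lmo3 (173 ± 18.7). Next came Nr5a1 (72.7 ± 4.59), clear of its neighbours in the order. Rreb1 (48.4), Sox14 (42.1), Nr2f1 (38.6) and Nr0b1 (28.6) followed as a run in which each gene's libraries overlapped those of the next, as did Nr2f2 with Nkx2-1 and Nkx2-1 with Lmo3. In VMHpvll Fezf1 (267 ± 5.95), Nr2f2 (214 ± 25.0) and Nkx2-1 (174 ± 12.4) kept the first places and did not overlap, and Lmo3 was far lower at 41.6 ± 3.47. Lmo3, Rreb1 (33.5) and Nr2f1 (31.97) overlapped as neighbours. Nr5a1, at 7.44 ± 1.59, came after Sox14 (11.2 ± 3.22) and only before Vgll2 (2.46) and Nr0b1 (1.91), which overlapped each other. The exon length is the union over annotated transcripts, so a gene with many transcripts is set lower by it.

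**Figure D3:**
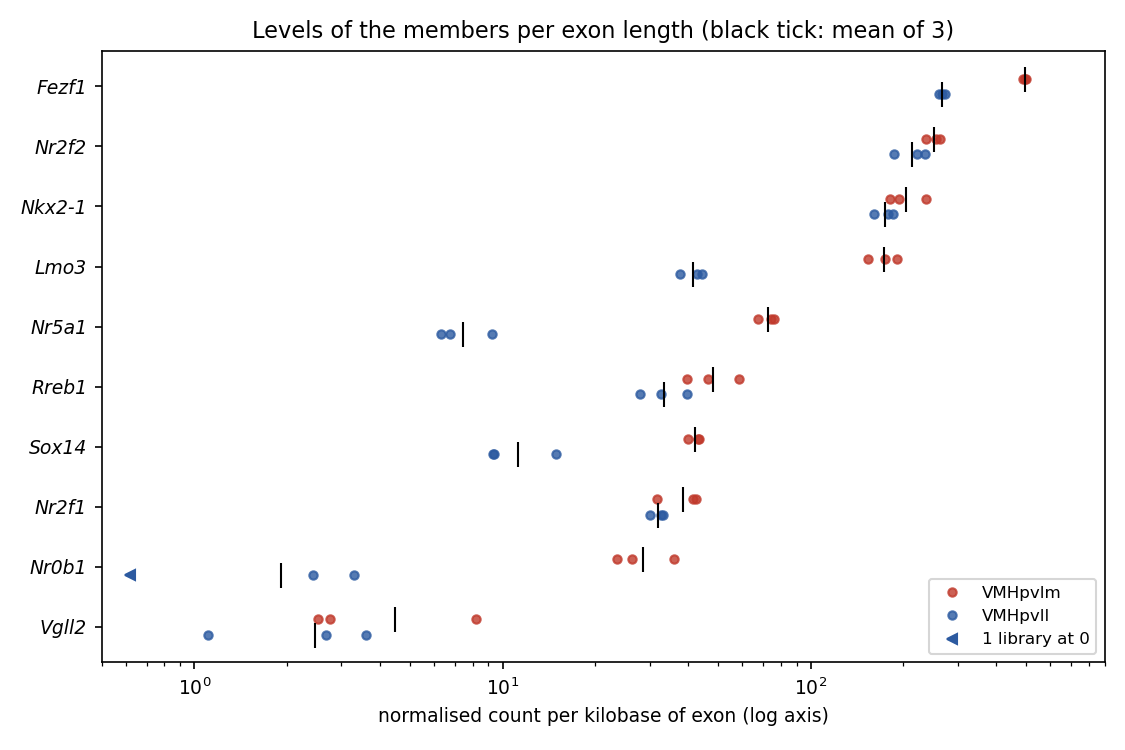
Normalised counts per kilobase of exon (log axis) for the members in the 3 VMHpvlm libraries (red) and the 3 VMHpvll libraries (blue), with a black tick at each mean and an arrow at the left edge for the VMHpvll library in which Nr0b1 was at 0. Fezf1 is at the top in both regions, and the regions are farthest apart for Nr5a1 and Nr0b1.

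Several members have a noncoding neighbour on the opposite strand within 5000 bases. C130093G08Rik, which starts 2771 bases from Fezf1 and shares no exon base with it, measured 401 ± 11.2 in VMHpvlm and 264 ± 24.1 in VMHpvll (log2 difference 0.60 ± 0.09 SE by limma, adjusted p = 9.99e-07 by Benjamini-Hochberg). A830011K09Rik, antisense to Lmo3 without shared exon bases, measured 26.3 ± 2.38 and 10.97 ± 5.87 (1.29 ± 0.37 SE, adjusted p = 0.00788). Both were higher in VMHpvlm, as were the genes beside them. Nr5a1os, antisense to Nr5a1, was too low to test, at 2.71, 15.3 and 9.08 in VMHpvlm and 2.20, 1.49 and 0 in VMHpvll. Not called were A830082K12Rik beside Nr2f1 (log2 difference 0.39, limma Benjamini-Hochberg adjusted p = 0.0928), B130024G19Rik beside Nr2f2 (0.16, adjusted p = 0.488) and Gm26973 beside Nkx2-1 (0.43, adjusted p = 0.573). These 6 were chosen after their values were seen.

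For each called member, the 3 genes with the nearest profile were found among tested genes with a mean of at least 50, as the root mean square distance of centred log2 values over 6 libraries. Nearest to Nr5a1 were Crhbp (distance 0.47), the gene of a binding protein for stress hormone peptides, the neuropeptide gene Nms (0.48) and the growth factor gene Fgf10 (0.60). For Nr0b1 they were Nms (0.74), Crhbp (0.95) and the melanocortin precursor Pomc (0.96). Lmo3 and Sox14 were among each other's neighbours, at a distance of 0.20, with Lama1 (0.23) and Ano3 (0.23) also near Lmo3 and Col24a1 (0.14) and Oprd1 (0.25) near Sox14. The neighbours of Fezf1 were closer, with Astn2 at 0.03, Camkk2 at 0.04 and Map3k5 at 0.04. Astn2 measured 1096 in VMHpvlm and 569 in VMHpvll, almost the levels of Fezf1 itself.

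The modest members had neighbours with equally modest differences. For Nr2f2 they were Camk4 (0.03), Ap3m2 (0.03) and Yaf2 (0.04), and for Nkx2-1 they were Nxpe3 (0.02), E130309D14Rik (0.02) and Maneal (0.05). Rreb1 was nearest to Smpd4 (0.08) and a pair of genes known only by clone names (0.07 and 0.08). All 6 libraries and the same region difference enter each distance, so a small distance describes the profile and nothing else.

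VMH genes linked to SF-1 were higher in VMHpvlm more often than the reverse, by smaller amounts than Nr5a1 itself. Of 14 listed genes 13 were tested, 7 were called higher in VMHpvlm and 2 in VMHpvll, with a median log2 difference of 0.43. The cannabinoid receptor Cnr1 was 2.01-fold higher in VMHpvlm (1563 ± 99.8 against 776 ± 59.1), the peptide PACAP gene Adcyap1 1.48-fold (1840 ± 106 against 1247 ± 216) and the adhesion gene Amigo2 1.35-fold (1273 ± 118 against 940 ± 11.8). Nptx2, a neuronal pentraxin, went the other way at 918 ± 48.5 against 1178 ± 29.8. The remaining called genes were Bdnf, Dlk1, Lepr and Sema3a toward VMHpvlm and Cdh4 toward VMHpvll.

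Genes that SF-1 controls in the adrenal, gonad and pituitary were mostly absent or low in both regions. Of 15 such genes 4 were tested and 0 were called by limma. By the same test 1 of them, Star, had an unadjusted p below 0.05, and edgeR and DESeq2 called 0 as well. Star, the cholesterol transporter of steroid synthesis, measured 17.4 ± 10.4 in VMHpvlm and 7.36 ± 3.67 in VMHpvll (log2 difference 1.10 by limma, adjusted p = 0.0924 by Benjamini-Hochberg), and the aromatase gene Cyp19a1 14.5 ± 3.29 and 20.95 ± 6.63 (adjusted p = 0.385). Inha and Scarb1 were at 68.8 and 154 in VMHpvlm and at 59.6 and 156 in VMHpvll.

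Coregulators of nuclear receptors were present in both regions, and among those listed Cited2 differed most. Of 13 tested, 4 were called higher in VMHpvlm and 2 in VMHpvll, with a median of 0.05. Cited2, a transcriptional cofactor, was 2.01-fold higher in VMHpvlm (349 ± 17.8 against 173 ± 22.8, limma log2 difference 1.01, Benjamini-Hochberg adjusted p = 6.40e-11). The corepressor Nrip1 was 1.30-fold higher in VMHpvll (905 ± 15.7 against 693 ± 40.7). The corepressor Ncor1 was called with a log2 difference of 0.13. Scaled to pan-neuronal genes the median was -0.06 and Cited2 was the 1 gene called toward VMHpvlm, and without the replicate block, as by DESeq2, Cited2 and Nrip1 were the 2 called genes.

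Relatives of the members split between the regions. Of 15 paralogues 11 were tested, 3 were called higher in VMHpvlm and 4 in VMHpvll, with a median of -0.33 (2 and 2 by DESeq2). Sox1 was 1.98-fold higher in VMHpvlm (361 ± 27.8 against 183 ± 11.3) and Sox2 1.64-fold (386 ± 39.3 against 236 ± 32.7). Nkx2-4, a relative of Nkx2-1, was 2.32-fold higher in VMHpvll (137 ± 6.34 against 59.0 ± 0.651), and Vgll4 was 1.93-fold higher there (82.7 ± 16.4 against 42.8 ± 3.75). Nr5a2, the paralogue of Nr5a1, was not tested, with 4.16 to 10.8 in VMHpvlm and 0 to 5.50 in VMHpvll.

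Partner proteins also went both ways. Of 15 partners 12 were tested, with 2 called higher in VMHpvlm, 3 in VMHpvll and a median of 0.02 (1 and 2 by DESeq2). Ldb2, which binds LIM domains, was 2.03-fold higher in VMHpvlm (377 ± 19.5 against 186 ± 9.98). Bcl11b, a zinc-finger protein that interacts with COUP-TFs, was 2.52-fold higher in VMHpvll (205 ± 18.5 against 81.5 ± 10.9). Of the Groucho corepressors, Tle4 was called toward VMHpvlm (log2 difference 0.34) and Tle1 toward VMHpvll (-0.74). The median turned to -0.09 when libraries were scaled to pan-neuronal genes.

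**Figure D4:**
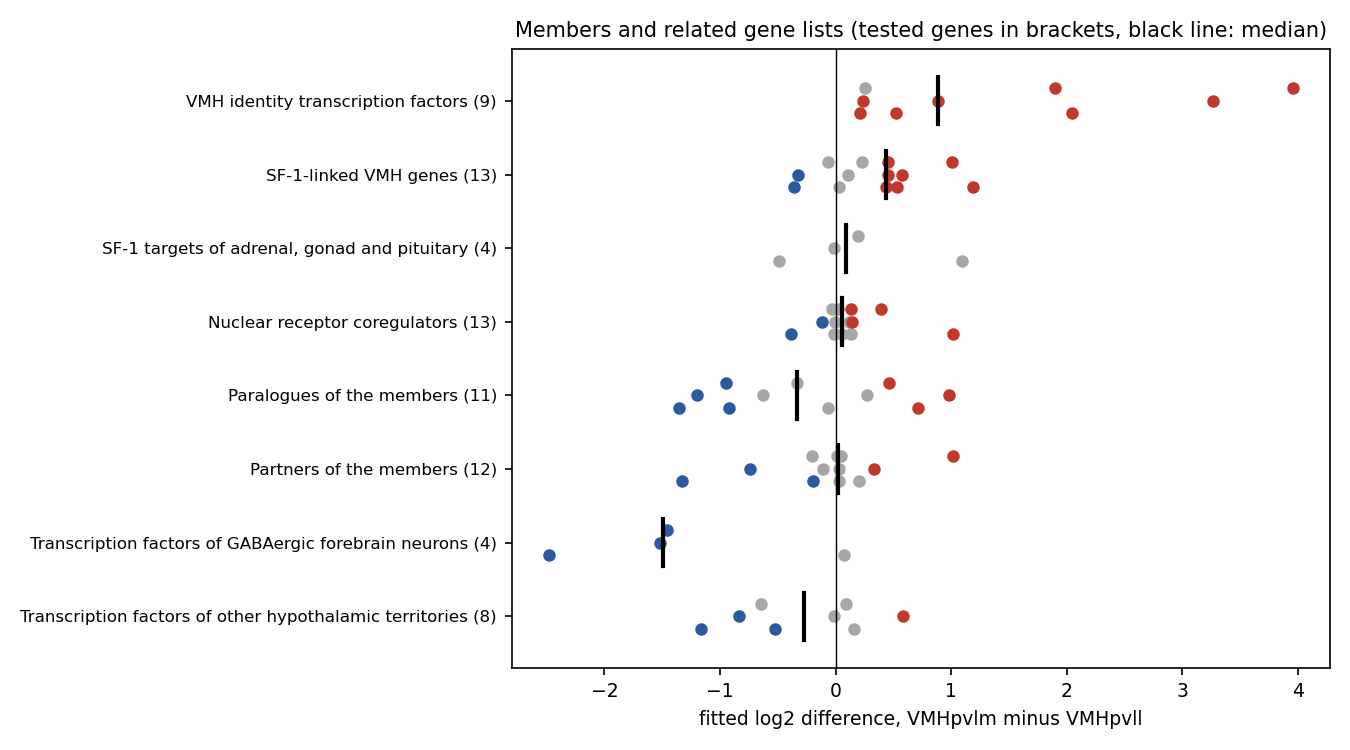
Differences between VMHpvlm and VMHpvll on the log2 scale, as fitted, for the tested genes of 8 lists, with red for genes called higher in VMHpvlm, blue for genes called higher in VMHpvll, grey for genes not called and a black line at each median. The members lie at 0.22 and above, while related lists spread to both sides of 0.

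Transcription factors of other neuron types were called mostly in the opposite direction. Of 10 factors of GABAergic forebrain neurons 4 were tested, and 3 were called higher in VMHpvll and 0 in VMHpvlm: Dlx1 (65.3 ± 10.99 against 22.4 ± 5.22), Dlx2 (23.5 ± 2.83 against 8.48 ± 3.92) and Dlx6 (22.3 ± 8.40 against 5.29 ± 5.998). Of these, 2 were called without the replicate block, where Dlx6 lost its call, and 2 by DESeq2, where Dlx2 lost it. Of 16 factors of other hypothalamic territories 8 were tested, with 3 called higher in VMHpvll and 1, Lhx5, in VMHpvlm. The call of Lhx5 was lost when libraries were scaled to pan-neuronal genes, without the replicate block and by DESeq2. Otp, a factor of paraventricular and arcuate neurons, was 2.25-fold higher in VMHpvll (250 ± 19.8 against 111 ± 11.7), Isl1 1.43-fold and Onecut2 1.78-fold.

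Markers of several other cell types also differed between the regions, mostly in the opposite direction to the members. The part of these markers in the differences above was not tested. The summed level of the GABAergic markers Gad1, Gad2 and Slc32a1 ran from 798 to 1054 in VMHpvlm and from 1991 to 2306 in VMHpvll, with 3 of 3 called. The sum of 8 oligodendrocyte markers ran from 11667 to 13334 and from 15675 to 16924, with 7 called toward VMHpvll. For 6 astrocyte markers the sums were 24927 to 27092 and 30064 to 34972, with 3 called. Slc1a2 held most of the astrocyte sum (mean 19437 in VMHpvlm and 24863 in VMHpvll). The astrocyte markers Slc1a3, Aldh1l1 and Gja1 were not called and overlapped between the regions. For 7 vascular markers the sums were 946 to 1180 and 1540 to 2061, with 5 called (2 by DESeq2). For 6 tanycyte and ependymal markers the sums were 273 to 389 and 503 to 712, with 2 called (1 by DESeq2 and 1 without the replicate block). The calls of these 3 lists were all toward VMHpvll. The sums of 6 microglia markers, 872 to 936 and 914 to 1043, overlapped, with 0 called by limma, edgeR and DESeq2 (1 at an unadjusted p below 0.05 in limma). None of these markers was at 0 in all libraries, and Rax, which was not tested, reached at most 4.47. Of 12 pan-neuronal genes 5 were called, all toward VMHpvlm (2, Snap25 and Syt1, by DESeq2 and without the replicate block), and their summed level ran from 47956 to 51613 and from 41961 to 47056.

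The 6 largest differences kept their calls when libraries were scaled to neuronal genes. Scaled to the geometric mean of the 12 pan-neuronal genes, which moved the median of all tested genes to -0.11, the log2 differences were 3.15 for Nr5a1, 3.87 for Nr0b1, 1.93 for Lmo3, 1.79 for Sox14, 0.78 for Fezf1 and 0.41 for Rreb1, each called. Scaled to Slc17a6, which moved that median to 0.09, they were 3.35, 4.02, 2.13, 1.98, 0.97 and 0.61, each called. Nr2f2 was called under both scalings as well (0.13 and 0.33), but narrowly when scaled to pan-neuronal genes (limma Benjamini-Hochberg adjusted p = 0.0465).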

How the data were processed

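Total RNA of laser-captured VMHpvlm and VMHpvll was extracted with PicoPure and sequenced from a stranded total RNA kit, per the labels' protocols. HISAT2, featureCounts and mm10 are named, without versions, in the submitters' processing notes. The sources used here name no annotation, strand setting or scaling tool, so a gene and its antisense partner cannot be told apart where they overlap. The deposited table is a normalised signal: the authors' gene counts divided by 1 factor per library, since 100% of non-zero values up to 1000 reads were whole multiples of 1 read (tolerance 0.05).

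For 14522 genes with a mean of at least 10, log2(value + 1) was fitted by limma 3.58.1 under R 4.3.3 (trend and robust prior, library name as block, two-sided, Benjamini-Hochberg). Log2 differences on this scale understate the change of low genes. The prior added a median of 39.9 to 2 residual degrees of freedom, so p-values rest largely on spread shared between genes. Titles do not say whether a name is 1 animal, so p-values measure spread between libraries, which may be technical. Deviations from region means correlated at 0.26, 0.24 and 0.36 for libraries of the same name (-0.25 to 0.01 otherwise), and names were taken as pairs. Deviations within a region cancel by construction, so the values for other names are no separate support for the pairing. Alternatives, with edgeR 4.0.16 and DESeq2 1.42.0 on recovered reads, are in the closing section. In simulated data (14522 genes), the limma step called 35.8% of genes changed by 0.5 (log2), 86.6% by 1 and 98.5% by 2. The simulated spread was a fixed setting not estimated from these libraries, and only 67, 67 and 66 genes were changed by these sizes. In the real libraries 2905 genes were called, so these rates need not hold there. Named genes were all members, for each list the 4 smallest p-values, and 3 nearest profiles per called member; other list members were named after their values were seen. One gene that this rule names is not reported here. Members and lists were chosen with earlier results of these data known. Positions and exon lengths came from GENCODE M21. Of the gene names, 27 had become dates and were left as they are.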

Additional observations from a re-analysis of the deposited data

How the results depend on the processing

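No member changed direction in any of the 188 values computed over 21 alternatives, and Nr5a1, Fezf1, Lmo3 and Sox14 were called in each of them. The number of members called toward VMHpvlm was 8 with all libraries, between 7 and 8 without a pair and 9 when scaled to Slc17a6. It was 6 without the replicate block and 4 without trend and robust options in the variance prior. It was between 5 and 6 when a single library was left out in a model without the block, and 5 without either KH_161103 library. No member was called toward VMHpvll in any alternative. Of all genes, 2905 were called, against 1800 without the replicate block, 422 without trend and robust options and 1230 by DESeq2. Between 1773 and 2872 were called without a pair (lowest without KH_161103). Between 1372 and 1654 were called without a single library, in models without the block, so these compare with 1800. The share of called genes that were higher in VMHpvlm was 52.6%, and 58.9% scaled to the same total, 21.9% scaled to pan-neuronal genes and 74.5% scaled to Slc17a6. In all, 24 calls of single members were lost and 1 was gained: Nkx2-1 lost its call in 12 alternatives, Rreb1 in 6, Nr2f2 in 5 and Nr0b1 in 1, and Nr2f1 gained one. With 1 region left with 2 libraries, these were assumed to vary like the others. Depth limits Nr0b1 and Vgll2, with 8 and 10 reads in VMHpvll.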
